A study of Mus musculus with 2 samples.

Results

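Cycling phagocytes are the dividing members of the mononuclear phagocytes, monocytes and macrophages, recovered from subcutaneous fibrosarcomas. A barcode counted as a phagocyte when it held at least 3000 UMIs (unique molecular identifiers, one per captured RNA molecule), at most 15% mitochondrial UMIs, at least 3 of the transcripts Csf1r, Cd68, Ctss and Fcgr3, at most 1 UMI of Cdh5, at most 2 of Rgs5 and at most 3 of Col1a1. It counted as cycling when at least 4 of Mki67, Top2a, Birc5, Nusap1, Cdca3 and Pclaf had at least 1 UMI. The cells were thus selected on measured values, those of the genes named here, and these values describe the cells without testing anything. This gave 1692 cycling cells among 15319 phagocytes and 23792 barcodes in all. The other 13627 phagocytes are called other phagocytes here.

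All tumours were syngeneic fibrosarcomas, grown subcutaneously in C57BL/6 mice of the wild type. They were minced, digested with collagenase B and DNase I, depleted of red blood cells by lysis and passed over magnetic columns. The iron-positive library holds the column eluate and the iron-negative library the flowthrough, each made with the 10x Genomics 3′ v3 chemistry. The labels give neither the number of mice or tumours nor their age, and there is 1 library per fraction, so no test across samples was possible and all intervals below are 95% intervals that cover counting error only. The iron-positive library gave 707 cycling cells and the iron-negative library 985.

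A dividing cell copies its DNA in S phase, condenses and separates its chromosomes in G2 and M phase, and needs iron for both the enzymes that make and repair DNA and the mitochondria that feed the process. Ribonucleotide reductase, which makes the building blocks of DNA, holds an iron centre in its small subunit, and several polymerases, a primase and helicases hold iron-sulfur clusters. Macrophages also handle iron for other cells: they break down heme with Hmox1, store iron in ferritin and release it through ferroportin (Slc40a1), and transferrin receptor (Tfrc) is the usual route of iron into a dividing cell. In tumours, macrophages can arise from blood monocytes and can also divide in place.

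The 6 markers that chose the cells cannot serve as a result, but they show how sharply the cells separate. Mki67 reached 408 CPM (counts of a gene's UMIs per 1000000 UMIs of the summed group) in cycling cells against 16.1 CPM in other phagocytes of the iron-positive library. In the iron-negative library Mki67 stood at 430 CPM in cycling cells and 18.5 CPM in other phagocytes. All 6 markers were detected in 458 cells of the iron-positive and 595 cells of the iron-negative library, the most common number among cycling cells in both. Just inside the threshold lay 104 iron-positive and 216 iron-negative cells with 4 markers. Just outside it lay 157 iron-positive and 298 iron-negative cells with 3 markers.

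Levels changed along this count on both sides of the threshold, as the plot by number of markers shows. Rrm2, the iron-bearing subunit of ribonucleotide reductase, stood at 47.4 CPM in cells with 4 markers and 25.3 CPM in cells with 3 in the iron-positive library, and at 46.6 CPM with 4 markers and 19.1 CPM with 3 in the iron-negative library. Stmn1, a microtubule regulator, stood at 456 CPM with 4 markers and 242 CPM with 3 in the iron-positive library, and at 428 CPM with 4 markers and 257 CPM with 3 in the iron-negative library. Hmox1 stood at 410 CPM with 4 markers and 1125 CPM with 3 in the iron-positive library, and at 212 CPM with 4 markers and 237 CPM with 3 in the iron-negative library. Cells with 3 markers count among the other phagocytes here, although they hold cycle transcripts too.

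**Figure D1:**
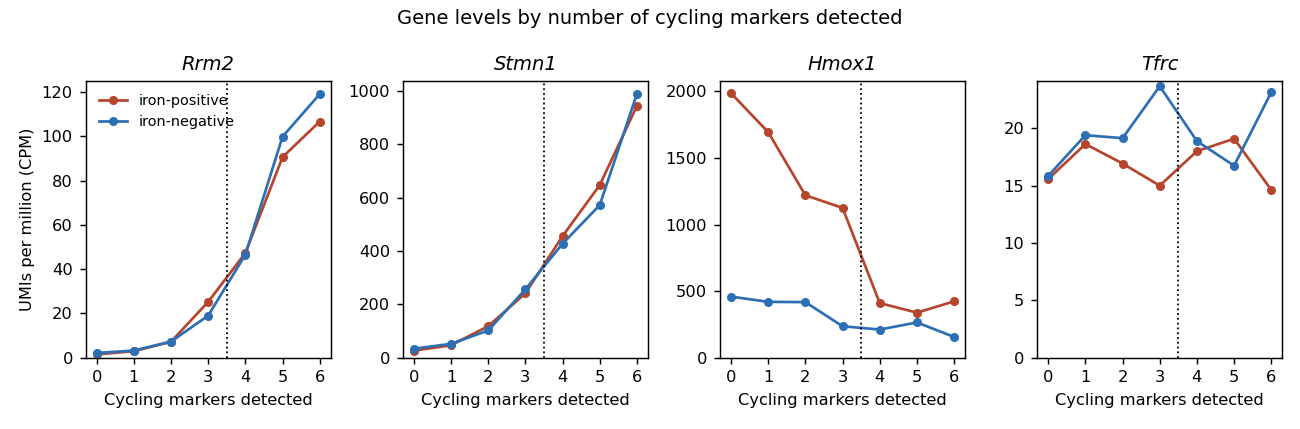
Levels of Rrm2, Stmn1, Hmox1 and Tfrc (y axis, CPM, summed over cells) against the number of cycling markers detected in a cell (x axis, 0 to 6), with 1 line per library and a dotted line at the threshold. Rrm2 and Stmn1 climb from 2 markers upward in both libraries, Hmox1 in the iron-positive library drops between 3 and 4 markers, and Tfrc stays between 14.6 and 23.7 CPM throughout.

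The cells carried the markers of mononuclear phagocytes. All 14 listed markers of that class reached at least 10 CPM in cycling cells of both libraries, and their summed level was 27420 CPM in cycling against 28680 CPM in other phagocytes of the iron-positive library, and 28250 CPM in cycling against 31250 CPM in other phagocytes of the iron-negative library. Each marker of dendritic cells, pericytes, T cells, NK cells, B cells, mast cells and erythroid cells was under 10 CPM in cycling cells of both libraries, and no erythroid marker had a UMI in the iron-negative ones. The plasmacytoid dendritic cell list reached 10 CPM through Tcf4 alone and the neutrophil list through Csf3r alone. The 4 osteoclast markers, of which Acp5 is common in macrophages, summed to 215 CPM in cycling and 274 CPM in other phagocytes of the iron-positive library and to 223 CPM in cycling and 304 CPM in other phagocytes of the iron-negative library. The 5 endothelial markers summed to 54.4 CPM in cycling and 70.4 CPM in other phagocytes of the iron-positive library and to 41.6 CPM in cycling and 64.1 CPM in other phagocytes of the iron-negative library, with Pecam1, which macrophages also express, making up 39.9 CPM in iron-positive and 37.7 CPM in iron-negative cycling cells. The 8 mesenchymal or fibrosarcoma markers summed to 96.2 CPM in cycling and 114 CPM in other phagocytes of the iron-positive library, with at least 2 of them detected in 40.7% of cycling and 28.8% of other cells. In the iron-negative library they summed to 28.4 CPM in cycling and 24.96 CPM in other phagocytes, with at least 2 detected in 9.24% of cycling and 4.36% of other cells. The part of such transcripts in the results below was not tested beyond leaving out 3 clusters led by genes of other cell types.

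Cycling cells had more UMIs. The median was 17755 UMIs per cell in cycling against 10656 in other phagocytes of the iron-positive library, a ratio of 1.67, and 21028 in cycling against 13351 in other phagocytes of the iron-negative library, a ratio of 1.58. The median mitochondrial share was 3.29% in cycling and 2.84% in other phagocytes of the iron-positive library, and 3.45% in cycling and 3.21% in other phagocytes of the iron-negative library. Of the 5% of phagocytes with most UMIs, 40.9% were cycling in the iron-positive and 54.6% in the iron-negative library. No doublet caller was run, so a cell with many UMIs may be 2 cells. The libraries shared 85 cell barcodes, of which 2 were cycling cells in each library.

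The cycling share of phagocytes was 10.0% in the iron-positive library (707 of 7040, exact binomial interval 9.35 to 10.8%) and 11.9% in the iron-negative library (985 of 8279, 11.2 to 12.6%). The ratio of iron-positive to iron-negative was 0.844, with an exact Poisson interval of 0.765 to 0.931. Because detection of 4 markers needs depth, every cell was also thinned at random to 3000 UMIs. The shares were then 4.92% in the iron-positive and 5.39% in the iron-negative library, with a ratio of 0.912 whose interval of 0.791 to 1.05 includes 1. In bands of depth the iron-positive share was the higher one in 3 of 4. Among cells of 12000 to 24000 UMIs 13.6% were cycling in the iron-positive and 11.6% in the iron-negative library, and among cells of 24000 UMIs or more 40.0% in the iron-positive and 41.9% in the iron-negative library. A difference in cycling share between the fractions was not detectable once every cell was thinned to the same depth.

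Free RNA can place cycle transcripts in droplets of cells that do not divide, so the share was set beside that of other cells. In the phagocyte cluster led by Pla2g2d, Cd55 and Cd209g, 0.351% of iron-positive and 0.472% of iron-negative cells still had 4 markers after thinning, at median depths of 9639 UMIs in the iron-positive and 9779 UMIs in the iron-negative library before it. Barcodes with at least 3 UMIs of Cdh5, an endothelial gene, had 4 markers in 39.9% of 526 iron-positive cells as sequenced, at a median of 30304 UMIs, and in 4.94% after thinning. Csf1r, a phagocyte marker, was detected in 46.2% of these barcodes as sequenced. Of 202 iron-positive barcodes with at least 5 UMIs of Rgs5, a pericyte gene, 44.55% had 4 markers as sequenced and 8.91% after thinning. The iron-negative library held 11 barcodes under the Cdh5 rule and 2 under the Rgs5 rule, too few to compare. The thinned share of iron-positive phagocytes was 4.92%, so a share taken over all phagocytes is not above that of either barcode group. Whether these barcodes divide or are doublets was not tested, so they cannot stand for cells that do not divide. The part of free RNA in the share was not tested. The cycling phagocytes themselves kept 4 markers after thinning in 48.9% of iron-positive and 45.3% of iron-negative cells.

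Transcripts of the division machinery separated cycling from other phagocytes in the same way in both libraries. Of the 7842 genes with at least 10 CPM in cycling or other phagocytes of each library, 10.8% were at least 1.5-fold higher in cycling cells in both libraries and 2.63% at least 1.5-fold lower. All 51 measured genes of the G2/M list and all 38 measured genes of the S phase list lay above 1.5-fold in both libraries, with median log2 ratios for G2/M of 4.62 in the iron-positive and 4.39 in the iron-negative library. The S phase medians were 2.31 in the iron-positive and 2.18 in the iron-negative library, and those over all measured genes 0.07 in the iron-positive and 0.04 in the iron-negative library. These genes belong to the programme that chose the cells, so their values describe the group and give no independent support. The largest ratios common to both libraries, among genes of at least 50 CPM, belonged to the spindle gene Aspm, the replication-dependent histones Hist1h2ap, Hist1h1b, Hist1h3c and Hist1h2ae, the mitotic kinase Pbk, the kinetochore genes Cenpf and Knl1, the hyaluronan receptor and spindle protein Hmmr, cyclin A2 (Ccna2) and the kinesins Kif11 and Kif4. Aspm stood at 56.4 CPM in cycling and 0.636 CPM in other phagocytes of the iron-positive library and at 55.3 CPM in cycling and 0.588 CPM in other phagocytes of the iron-negative library, log2 ratios of 6.46 in the iron-positive and 6.54 in the iron-negative library. Replication-dependent histone transcripts mostly lack the poly(A) tails on which this assay relies.

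The promoters of the G2/M genes share letters that those of the S phase genes mostly lack, which makes their sequences useful to see. Windows from 250 bases before to 50 after the start, from RefSeq on GRCm38.p6, were available for 42 of 51 G2/M genes (45 windows) and 29 of 41 S phase genes (36 windows). The cell cycle gene homology region, or CHR, was searched as TTTGAA, the CCAAT box as CCAAT, and an E2F-type site as TTTGGCGC or TTTCCCGC, each on both strands. CHR letters were in 80.0% of G2/M windows, 13.9% of S phase windows and 17.9% of all 32851 promoter windows. CCAAT was in 82.2% of G2/M windows, 63.9% of S phase windows and 37.4% of all. Both together were in 71.1% of G2/M windows, 11.1% of S phase windows and 6.95% of all. The E2F letters were in 6.67% of G2/M windows, 30.6% of S phase windows and 1.56% of all. A match describes letters in a window and is no evidence of binding in these cells.

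The first pair below are G2/M genes, Ube2c, the ubiquitin-conjugating enzyme of the anaphase-promoting complex, and Ccnb2, cyclin B2. The second pair act in S phase, the replicative helicase subunit Mcm6 and Rrm2. Capitals mark CHR, CCAAT or E2F letters on either strand, and each sequence is written 5′ to 3′ on its gene's strand. The windows lie at chr2:164769679-164769978 (plus strand) for Ube2c, chr9:70421505-70421804 (minus strand) for Ccnb2, chr1:128359656-128359955 (minus strand) for Mcm6 and chr12:24708004-24708303 (plus strand) for Rrm2.
Ube2c: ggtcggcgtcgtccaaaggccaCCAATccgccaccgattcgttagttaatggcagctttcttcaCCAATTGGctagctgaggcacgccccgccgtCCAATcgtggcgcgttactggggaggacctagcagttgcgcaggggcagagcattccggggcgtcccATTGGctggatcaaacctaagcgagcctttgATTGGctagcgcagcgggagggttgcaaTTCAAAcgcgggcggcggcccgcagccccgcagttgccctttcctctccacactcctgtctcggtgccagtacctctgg
Ccnb2: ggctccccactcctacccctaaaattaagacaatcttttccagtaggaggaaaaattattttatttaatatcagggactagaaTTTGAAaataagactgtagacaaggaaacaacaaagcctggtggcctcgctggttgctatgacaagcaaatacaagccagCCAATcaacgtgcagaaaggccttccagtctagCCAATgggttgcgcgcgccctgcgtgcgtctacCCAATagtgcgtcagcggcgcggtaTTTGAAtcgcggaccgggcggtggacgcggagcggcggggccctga
Mcm6: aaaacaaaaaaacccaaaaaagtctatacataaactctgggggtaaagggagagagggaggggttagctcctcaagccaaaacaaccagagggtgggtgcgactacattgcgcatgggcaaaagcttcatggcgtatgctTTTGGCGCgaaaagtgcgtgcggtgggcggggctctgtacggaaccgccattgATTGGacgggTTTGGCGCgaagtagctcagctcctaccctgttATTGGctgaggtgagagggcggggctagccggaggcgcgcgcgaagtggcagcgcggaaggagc
Rrm2: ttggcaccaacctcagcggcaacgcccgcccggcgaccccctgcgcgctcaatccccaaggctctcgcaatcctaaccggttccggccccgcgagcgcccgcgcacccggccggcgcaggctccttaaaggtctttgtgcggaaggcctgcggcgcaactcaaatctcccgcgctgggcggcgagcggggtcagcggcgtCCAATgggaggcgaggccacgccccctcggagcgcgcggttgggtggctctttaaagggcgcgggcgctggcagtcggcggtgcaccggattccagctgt
The Ube2c window holds 1 CHR and 6 CCAAT matches, 1 pair of which overlap on opposite strands, and the Ccnb2 window holds 2 and 3. The Mcm6 window holds 2 E2F and 2 CCAAT matches and no CHR, and the Rrm2 window 1 CCAAT match.

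Those genes also divided the cycling cells among themselves. Each cell was thinned to 3000 UMIs and assigned to the phase list of which it expressed the larger part. The S phase list led in 33.5% of iron-positive (interval 30.1 to 37.1%) and 33.2% of iron-negative cycling cells (30.3 to 36.2%), and the G2/M list in 66.5% of iron-positive and 66.6% of iron-negative cells. All of the 6 selecting markers but Pclaf peak late in the cycle. With at least 3 markers in place of 4 the S phase share was 37.6% in the iron-positive and 40.1% in the iron-negative library. The lists lay within 3 percentage points of each other in 75 of 707 iron-positive and 110 of 985 iron-negative cells. Mcm6 and Ube2c belong to the lists that assigned the phase, so their values describe the assignment. Mcm6 stood at 193 CPM in S phase-led and 47.0 CPM in G2/M-led cells of the iron-positive library and at 236 CPM in S phase-led and 62.4 CPM in G2/M-led cells of the iron-negative library. Ube2c stood at 72.1 CPM in S phase-led and 448 CPM in G2/M-led cells of the iron-positive library and at 62.1 CPM in S phase-led and 395 CPM in G2/M-led cells of the iron-negative library. Of genes in neither list, cyclin E2 (Ccne2), which drives entry into S phase, had log2 ratios of S phase-led over G2/M-led cells of 2.93 in the iron-positive and 2.70 in the iron-negative library, and cyclin D1 (Ccnd1) of 0.77 in the iron-positive and 0.65 in the iron-negative library.

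The regulators of entry into the cycle did not all move one way. Of 15 measured G1/S drivers, 11 were at least 1.5-fold higher in cycling cells of both libraries, where 10.8% of all measured genes were. Drivers of the cycle belong to the programme that chose the cells, so this count describes the group and gives no independent support. Foxm1, which activates G2/M genes, stood at 45.1 CPM in cycling and 1.29 CPM in other phagocytes of the iron-positive library and at 46.0 CPM in cycling and 1.76 CPM in other phagocytes of the iron-negative library. The D cyclins were less apart: Ccnd1, which growth factors induce in macrophages, stood at 167 CPM in cycling and 116 CPM in other phagocytes of the iron-positive library and at 180 CPM in cycling and 153 CPM in other phagocytes of the iron-negative library. Of 19 measured cycle inhibitors and quiescence genes, 3 were at least 1.5-fold higher in both libraries and 3 lower, beside 10.8% and 2.63% of all measured genes. The 3 higher ones were the CDK inhibitors Cdkn2c and Cdkn2d and the pocket protein Rbl1. Cdkn2c, which holds CDK4 and CDK6 in check, stood at 44.2 CPM in cycling and 3.94 CPM in other phagocytes of the iron-positive library and at 48.2 CPM in cycling and 5.33 CPM in other phagocytes of the iron-negative library. The 3 lower ones were the antiproliferative Btg1, the p53-induced Trp53inp1 and the factor Klf4. Maf, a transcription factor of macrophages, stood at 311 CPM in cycling and 467 CPM in other phagocytes of the iron-positive library and at 389 CPM in cycling and 495 CPM in other phagocytes of the iron-negative library.

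Division was unequal among phagocyte states. Each state is the 10% of phagocytes of both libraries with the highest mean log level of a short marker list after thinning, so it is a range along a score and not a cell type, and none of the lists holds a cycle gene. The Fcrls Cx3cr1 state (Fcrls, Cx3cr1, Olfml3, Pmepa1, F11r) had the highest cycling share in both libraries: 74 of 400 iron-positive cells, 18.5% (interval 14.8 to 22.7%), and 213 of 1320 iron-negative cells, 16.1% (14.2 to 18.2%). Fcrls and Cx3cr1 are best known from microglia and other long-lived macrophages, and Cx3cr1 is the fractalkine receptor. Outside that state the shares were 9.53% in the iron-positive and 11.1% in the iron-negative library, giving ratios of inside to outside of 1.94 (1.504 to 2.47) in the iron-positive and 1.46 (1.24 to 1.70) in the iron-negative library. After thinning the shares were 11.5% inside it in the iron-positive and 7.27% in the iron-negative library.

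At the other end stood 3 states. In the Ly6c2 Plac8 state, whose genes mark monocytes fresh from blood, 13 of 714 iron-positive cells (1.82%, 0.973 to 3.09%) and 12 of 894 iron-negative cells (1.34%, 0.695 to 2.33%) were cycling. In the Mmp12 Cd36 state, which also scores Gpnmb, Cxcl3 and Hmox1 and belongs mostly to the iron-positive library, 25 of 1372 iron-positive cells (1.82%, 1.18 to 2.68%) were cycling. Of its 162 iron-negative cells 0 were cycling, which allows a share of up to 1.85% when 0 is read as at most 3 counts, and of up to 2.25% by the exact binomial interval. In the Mmp9 Pdpn Arg1 state 20 of 1057 iron-positive (1.89%, 1.16 to 2.91%) and 20 of 580 iron-negative cells (3.45%, 2.12 to 5.28%) were cycling. All 6 values lie under the shares of all phagocytes, and their intervals do not reach them.

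The remaining states lay between. The Retnla Cbr2 state had 3.68% cycling cells in the iron-positive and 6.22% in the iron-negative library, and the MHC class II-high state 4.48% cycling cells in the iron-positive and 4.03% in the iron-negative library. The Cd209f Cd163 Lyve1 state, whose scavenger receptors mark resident macrophages, had 5.50% cycling cells in the iron-positive and 9.39% in the iron-negative library. That value depends on the width of the state: with the top 5% of cells it was 2.66% in the iron-positive and 5.76% in the iron-negative library, and with the top 20% it was 8.27% in the iron-positive and 11.4% in the iron-negative library. Within 0.05 score units of the 10% limit, on either side of it, lay 571 iron-positive and 705 iron-negative phagocytes, beside 1127 iron-positive and 1044 iron-negative cells in the state. The Il1r2 Ifitm1 Ltb4r1 state had 7.87% cycling cells in the iron-positive and 5.05% in the iron-negative library, and the type I interferon state 6.63% cycling cells in the iron-positive and 8.09% in the iron-negative library. The Gbp2b Serpina3g state, named for interferon-gamma-induced genes, had 11.6% cycling cells in the iron-positive and 11.2% in the iron-negative library, and the heat shock state led by Hspa1a and Hspa1b 9.97% cycling cells in the iron-positive and 14.0% in the iron-negative library. The intervals of those last 2 states include the share of all phagocytes in both libraries except for the heat shock state in the iron-negative library, at 11.99 to 16.1%.

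**Figure D2:**
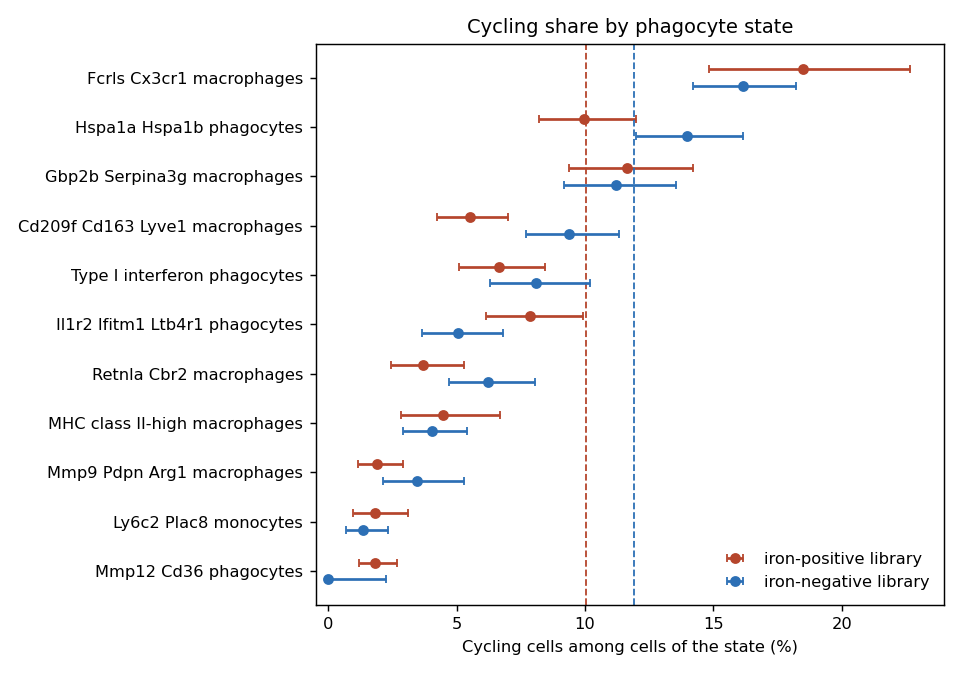
Share of cycling cells (x axis, %) in each of 11 phagocyte states (y axis), iron-positive library above iron-negative in each pair. Points are shares of cells with 95% exact binomial intervals, which cover counting error only, and dashed lines mark the share among all phagocytes, 10.0% in the iron-positive and 11.9% in the iron-negative library. The Fcrls Cx3cr1 state lies right of both lines and the Mmp9, Ly6c2 and Mmp12 states lie far left of them.

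Clustering the phagocytes gave a second view. Genes of the cycle lists and 36 genes correlated with the number of selecting markers detected were left out before 15 clusters were made. Leading genes could be ones left out of the clustering, such as Cenpf and Mcm5. Transcripts of the cycle were among the leading genes of 3 clusters. Whether the cycle still shaped these 3 was not tested, so their shares are not taken as independent of the clustering. The first of these, led by Fcrls and Cx3cr1 and then Cenpf, Racgap1 and Mcm5, had 26.9% cycling cells in the iron-positive and 23.5% in the iron-negative library. A second, led by Hspa1a, Hspa1b, Ccl4 and Hist1h2ae, had 25.5% cycling cells in the iron-positive and 19.6% in the iron-negative library, the cluster led by Gbp2b and Serpina3g 23.6% cycling cells in the iron-positive and 19.0% in the iron-negative library, and the cluster led by Ifit3b, Ifit3 and Ifit1 21.8% cycling cells in the iron-positive and 15.95% in the iron-negative library. The cluster led by Itgax and MHC class II genes had 17.4% cycling cells in the iron-positive and 11.4% in the iron-negative library. The type I interferon and MHC class II values depend on how the state was drawn. The top-scoring cells of these 2 states lay below the share of all phagocytes in both libraries. The cluster led by Ifit genes lay above that share in both libraries, and the cluster led by Itgax and MHC class II genes in the iron-positive library only. The intervals of the Gbp2b Serpina3g state included that share in both libraries. Those of its cluster lay above it, at 20.4 to 26.9% in the iron-positive and 16.6 to 21.5% in the iron-negative library. The heat shock cluster lay above it in both libraries, while the interval of the heat shock state included it in the iron-positive library. The last of the 3, led by Igfbp3, Ctla2a and Sparc, genes of endothelial and stromal cells, held 54 iron-positive and 9 iron-negative cycling cells at medians over all its cells of 5655 UMIs in the iron-positive and 5776 UMIs in the iron-negative library. Other clusters had low shares: the cluster led by Mmp8, Mmp12 and Cd36 had 3.61% cycling cells in the iron-positive and 4.42% in the iron-negative library, the cluster led by Ly6c2 4.16% cycling cells in the iron-positive and 1.64% in the iron-negative library, the cluster led by Retnla and Lyve1 3.44% cycling cells in the iron-positive and 1.58% in the iron-negative library, and the cluster led by Pla2g2d and Cd209 genes 1.05% cycling cells in the iron-positive and 1.42% in the iron-negative library. For the Cd209 genes the views differed, since the state named for Cd209f lay nearer to the share of all phagocytes. For Fcrls they differed in part. A further cluster, led by Sox4, Fcrls and Scoc, had 8.74% cycling cells in the iron-positive library (interval 6.35 to 11.7%). In the iron-negative library that cluster had 9.55% (8.06 to 11.2%). Its shares lay under those of all phagocytes in both libraries, unlike those of the Fcrls Cx3cr1 state.

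The cycling cells had lower levels of several monocyte, chemokine and matrix genes. Ly6c2 stood at 15.8 CPM in cycling and 78.5 CPM in other phagocytes of the iron-positive library and at 11.4 CPM in cycling and 56.9 CPM in other phagocytes of the iron-negative library, log2 ratios of -2.31 in the iron-positive and -2.32 in the iron-negative library. Plac8, another monocyte transcript, stood at 36.6 CPM in cycling and 167 CPM in other phagocytes of the iron-positive library and at 29.5 CPM in cycling and 140.0 CPM in other phagocytes of the iron-negative library, log2 ratios of -2.19 in the iron-positive and -2.25 in the iron-negative library. With Chil3, these were the 3 of 8 measured monocyte genes at least 1.5-fold lower in both libraries, and none was higher. Ccr2, the receptor that brings monocytes to tissue, did not follow in the iron-positive library, at 104 CPM in both groups, and stood at 106 CPM in cycling and 164 CPM in other phagocytes of the iron-negative library. The other genes named for the lowest ratios common to both libraries were the acute-phase Saa3, the Schlafen gene Slfn5, the clotting factor subunit F13a1, Tcp11l2, the chemokines Ccl6 and Ccl5, the gelatinase Mmp9, the matrix protein Thbs1, the lectin Clec10a and Hmox1. Of 18 measured chemokines and inflammatory mediators 9 were at least 1.5-fold lower in both libraries and none higher, among them Cxcl3 at 9.39 CPM in cycling against 108 CPM in other phagocytes of the iron-positive library and 4.29 CPM in cycling against 20.6 CPM in other phagocytes of the iron-negative library. Ccl12 went the other way, at 283 CPM in cycling against 170 CPM in other phagocytes of the iron-positive library and 247 CPM in cycling against 193 CPM in other phagocytes of the iron-negative library.

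Cx3cr1 had the highest ratio of the mature macrophage list in both libraries. It stood at 269 CPM in cycling and 127 CPM in other phagocytes of the iron-positive library and at 366 CPM in cycling and 250 CPM in other phagocytes of the iron-negative library, log2 ratios of 1.08 in the iron-positive and 0.55 in the iron-negative library. The complement genes C1qa, C1qb and C1qc were higher by 0.26 to 0.31 on the log2 scale in the iron-positive and 0.05 to 0.06 in the iron-negative library. Of 16 measured genes of that list 2 were at least 1.5-fold lower in both libraries, the selenium carrier Selenop and the apoptotic-cell bridge Gas6, and none higher. Igf1, a growth factor made by macrophages, stood at 20.3 CPM in cycling and 93.0 CPM in other phagocytes of the iron-positive library and at 15.8 CPM in cycling and 38.1 CPM in other phagocytes of the iron-negative library. It was 1 of 3 genes at least 1.5-fold lower in both libraries among 12 growth factor receptors and ligands, with Csf3r and Igf1r. Of 14 lipid-associated and matrix-degrading genes 3 were lower in both, Mmp12, Gpnmb and Arg1, of 11 interferon targets 1, Rsad2, and of 15 immediate early and stress genes 1, Egr1, with none higher, where 2.63% of all measured genes were lower in both. Other phagocytes were also weighted to the clusters of the cycling cells. In the iron-positive library 2 lipid-associated genes, 1 immediate early gene and 5 chemokines and mediators were then at least 1.5-fold lower. In the iron-negative library 0 lipid-associated genes, 0 immediate early genes and 2 chemokines and mediators were, and 1 lipid-associated gene was at least 1.5-fold higher.

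Metabolic lists differed in how far they stood apart. Of 23 measured nucleotide synthesis genes 18 were at least 1.5-fold higher in both libraries, where 10.8% of all measured genes were. Genes that make the building blocks of DNA belong to the programme that chose the cells, so this count gives no independent support. Thymidine kinase (Tk1) stood at 120 CPM in cycling and 5.71 CPM in other phagocytes of the iron-positive library and at 125 CPM in cycling and 8.94 CPM in other phagocytes of the iron-negative library. Rrm2b, the p53-induced counterpart of Rrm2, was near level, at 12.7 CPM in cycling and 14.4 CPM in other phagocytes of the iron-positive library and at 14.1 CPM in cycling and 15.2 CPM in other phagocytes of the iron-negative library. The 26 oxidative phosphorylation genes were higher in cycling cells in 23 cases in both libraries but by little, with median log2 ratios of 0.28 in the iron-positive and 0.18 in the iron-negative library and none past 1.5-fold in both. Of 22 genes of ribosome biogenesis 6 were at least 1.5-fold higher in both, Nop58 at 77.2 CPM in cycling against 31.0 CPM in other phagocytes of the iron-positive library and 83.5 CPM in cycling against 34.9 CPM in other phagocytes of the iron-negative library. Of 22 hypoxia and glycolysis genes 21 were lower in both libraries, 6 of them at least 1.5-fold, where 2.63% of all measured genes were. Their median log2 ratio was -0.502 in the iron-positive and -0.307 in the iron-negative library. With other phagocytes weighted to the clusters of the cycling cells it was -0.195 in the iron-positive and -0.13 in the iron-negative library. Under these weights 3 iron-positive and 2 iron-negative ratios were at least 1.5-fold lower. Vegfa stood at 180 CPM in cycling and 410 CPM in other phagocytes of the iron-positive library and at 149 CPM in cycling and 321 CPM in other phagocytes of the iron-negative library, while Gapdh differed by -0.05 in the iron-positive and 0.03 in the iron-negative library on the log2 scale.

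The iron demand list gathers 61 genes of heme synthesis, iron-sulfur cluster assembly, iron-dependent DNA enzymes and iron import. Its median log2 ratio of cycling over other phagocytes was 0.23 over 49 measured genes in the iron-positive library and 0.25 over 51 in the iron-negative library, and 11 of the 49 measured in both were at least 1.5-fold higher in both and none lower, where 10.8% of all measured genes were higher. The list divided by role: 8 of the 11 higher genes were iron-dependent DNA enzymes, of which 11 were measured. Alad and Nubp1 were also among the 11 higher genes. Enzymes that copy DNA belong to the programme that chose the cells, so the count of DNA enzymes describes the group and gives no independent support. Heme synthesis had 1 of 8 and iron-sulfur cluster assembly 2 of 21 measured genes higher in both libraries, which is near the share of all genes. Without the DNA enzymes the list's median was 0.16 in the iron-positive and 0.20 in the iron-negative library.

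Rrm2 stood at 97.5 CPM in cycling and 3.25 CPM in other phagocytes of the iron-positive library and at 103 CPM in cycling and 4.07 CPM in other phagocytes of the iron-negative library, log2 ratios of 4.91 in the iron-positive and 4.66 in the iron-negative library. Within cycling cells it stood at 161 CPM in S phase-led and 65.0 CPM in G2/M-led cells of the iron-positive library and at 167 CPM in S phase-led and 70.3 CPM in G2/M-led cells of the iron-negative library. The helicase Brip1 stood at 34.8 CPM in cycling and 2.76 CPM in other phagocytes of the iron-positive library and at 31.7 CPM in cycling and 3.55 CPM in other phagocytes of the iron-negative library. The polymerases Pole, Pola1 and Pold1 had log2 ratios of 4.03, 2.49 and 2.34 in the iron-positive library and 3.16, 2.44 and 2.04 in the iron-negative library. The dioxygenases Tet2 and Tet3, which also use iron but oxidise methylated cytosine, were not among the higher ones, with log2 ratios in the iron-positive library of -0.17 for Tet2 and 0.00 for Tet3 and in the iron-negative library of -0.41 for Tet2 and -0.09 for Tet3.

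Most genes of the pathways that place iron into heme and clusters were within 1.5-fold. Alad, which makes the first ring of heme, stood at 16.2 CPM in cycling and 8.03 CPM in other phagocytes of the iron-positive library and at 16.9 CPM in cycling and 8.64 CPM in other phagocytes of the iron-negative library, log2 ratios of 1.01 (0.78 to 1.24) in the iron-positive and 0.97 (0.79 to 1.15) in the iron-negative library. Alas1, the first enzyme of the route, and Fech, which inserts the iron, were near level at -0.02 and -0.03 in the iron-positive library and 0.06 and -0.09 in the iron-negative library. The heme synthesis list had a median of 0.39 in the iron-positive and 0.34 in the iron-negative library. Nubp1, of the cytosolic assembly route that serves polymerases, stood at 79.1 CPM in cycling and 45.0 CPM in other phagocytes of the iron-positive library and at 74.3 CPM in cycling and 45.4 CPM in other phagocytes of the iron-negative library. The scaffold Iscu and the sulfur donor Nfs1 differed by 0.04 and 0.07 in the iron-positive and by -0.09 and 0.09 in the iron-negative library.

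The genes of iron import were not higher as a group. Tfrc stood at 15.7 CPM in cycling and 16.5 CPM in other phagocytes of the iron-positive library, a log2 ratio of -0.07 whose interval of -0.29 to 0.14 includes 0, and at 21.4 CPM in cycling and 17.8 CPM in other phagocytes of the iron-negative library, a ratio of 0.27 (0.12 to 0.41). Of 13 measured genes of iron uptake and intracellular iron none was at least 1.5-fold higher in both libraries, and 1 was lower, transferrin itself (Trf), at 203 CPM in cycling and 347 CPM in other phagocytes of the iron-positive library and at 229 CPM in cycling and 373 CPM in other phagocytes of the iron-negative library. The mitochondrial iron importer Slc25a37 stood at 15.4 CPM in cycling and 32.2 CPM in other phagocytes of the iron-positive library and at 14.9 CPM in cycling and 15.3 CPM in other phagocytes of the iron-negative library. In S phase-led over G2/M-led cells the Tfrc ratio was 0.34 (-0.08 to 0.75) in the iron-positive and 0.11 (-0.18 to 0.38) in the iron-negative library, both including 0.

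Of the iron storage, release and heme genes described here, Hmox1, Slc40a1 and Cd163 were at least 1.5-fold lower in cycling cells of both libraries, and both ferritins in the iron-positive library. Ferritin heavy chain (Fth1) stood at 16390 CPM in cycling and 25490 CPM in other phagocytes of the iron-positive library and at 13140 CPM in cycling and 16770 CPM in other phagocytes of the iron-negative library, log2 ratios of -0.64 in the iron-positive and -0.35 in the iron-negative library. Ferritin light chain (Ftl1) stood at 5396 CPM in cycling and 9781 CPM in other phagocytes of the iron-positive library and at 4676 CPM in cycling and 5846 CPM in other phagocytes of the iron-negative library, ratios of -0.86 in the iron-positive and -0.32 in the iron-negative library. Slc40a1, the only known cellular iron exporter, stood at 31.9 CPM in cycling and 116 CPM in other phagocytes of the iron-positive library, a ratio of -1.87 (-2.01 to -1.73), and at 1.83 CPM in cycling and 6.33 CPM in other phagocytes of the iron-negative library, -1.78 (-2.29 to -1.33), where it stayed under the 10 CPM minimum. Hmox1 stood at 409 CPM in cycling and 1810 CPM in other phagocytes of the iron-positive library, -2.15, and at 183 CPM in cycling and 430 CPM in other phagocytes of the iron-negative library, -1.23. The hemoglobin-haptoglobin receptor Cd163 stood at 8.34 CPM in cycling and 61.4 CPM in other phagocytes of the iron-positive library and at 5.57 CPM in cycling and 15.7 CPM in other phagocytes of the iron-negative library. Hmox1 and Cd163 were the 2 of 9 measured genes of heme uptake and breakdown at least 1.5-fold lower in cycling cells of both libraries. Of all measured genes 2.63% were. Blvra, which acts on the biliverdin that Hmox1 makes, lay on the other side, with ratios of 0.18 in the iron-positive and 0.15 in the iron-negative library. Of the 9 genes 1 was at least 1.5-fold higher in the iron-positive library, at 0.63, and 0 in the iron-negative library. All 7 genes of storage, export and sensing measured in both libraries had negative ratios in both, but 0 of them were at least 1.5-fold lower in the iron-negative library.

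**Figure D3:**
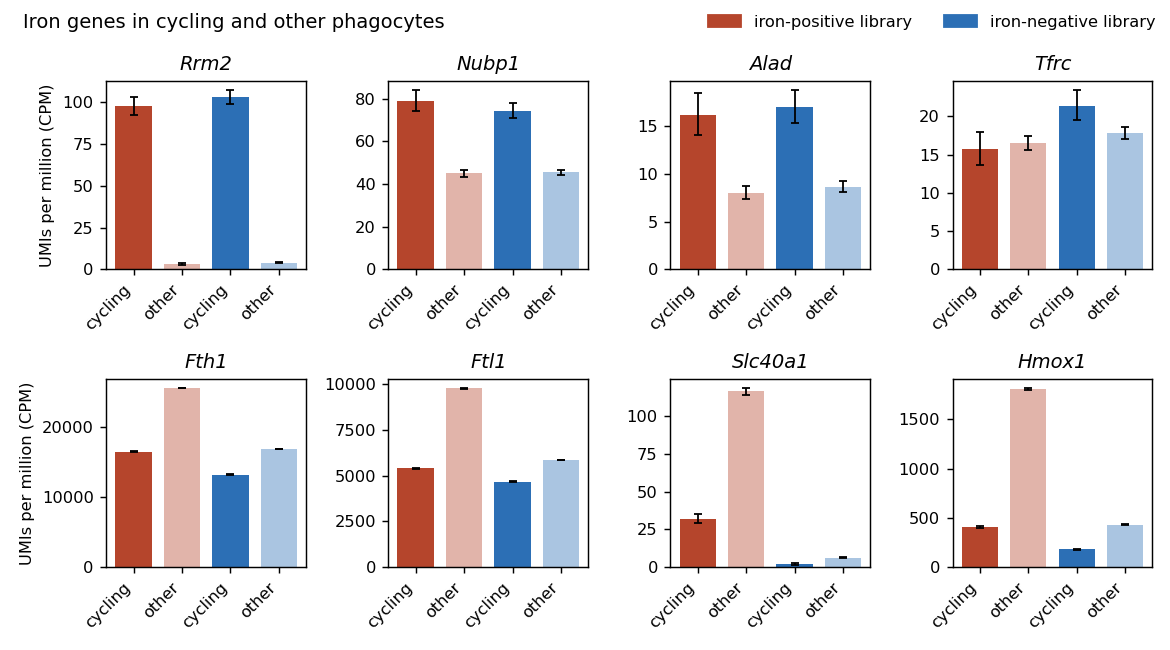
Level of 8 iron genes (y axes from 0, CPM) in cycling and other phagocytes of the iron-positive (red) and iron-negative (blue) library, other phagocytes in the paler shade. Bars are levels of summed UMIs with exact Poisson intervals; Rrm2, Nubp1 and Alad stand higher in cycling cells of both libraries, Tfrc is near level, and Fth1, Ftl1, Slc40a1 and Hmox1 stand lower.

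Fth1, Ftl1, Slc40a1 and Tfrc transcripts carry iron-responsive elements, hairpins that iron regulatory proteins bind when iron is short, which block translation when they lie before the coding sequence and protect the transcript when they lie after it. They are shown because a transcript level reads out that control for Tfrc and not for ferritin or Slc40a1. Matches were a C, a stem of 5 base pairs (G-U pairs allowed) and the 6-base loop CAGTGN in GENCODE M21 transcripts on GRCm38. Capitals mark the loop. The Fth1 element lies in the 5′ UTR at chr19:9982738-9982754, the Ftl1 element in the 5′ UTR at chr7:45459785-45459801 (minus strand), the Slc40a1 element in the 5′ UTR at chr1:45925471-45925487 (minus strand), and 4 Tfrc elements in the 3′ UTR, the first at chr16:32631225-32631241 and the last at chr16:32631716-32631732.
Fth1: cttcaaCAGTGCttgaa
Ftl1: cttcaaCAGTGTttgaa
Slc40a1: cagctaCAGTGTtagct
Tfrc, first: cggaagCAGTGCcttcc
Tfrc, last: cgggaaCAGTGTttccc
Protein levels were not measured, so the data show transcripts of ferritin and Slc40a1 and not what was made from them.

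Part of these differences moved with the mixture of states. Other phagocytes were therefore also weighted so that each of the 15 clusters had the share of UMIs it has among the cycling cells of the same library. Of the 1148 genes at least 1.5-fold higher in cycling cells of the iron-positive library (14.4% of 7989 measured), 854 were also higher under the weights, and of the 944 in the iron-negative library (11.8% of 8014) 842 were. Of the 550 lower genes in the iron-positive library (6.88%) 140 were also lower, and of the 278 in the iron-negative library (3.47%) 103 were. Without the 3 clusters led by genes of other cell types, 97.5% of the higher and 97.1% of the lower genes of the iron-positive library and 97.8% and 97.5% of those of the iron-negative library still passed 1.5-fold. Rrm2 had log2 ratios of 4.36 in the iron-positive and 4.35 in the iron-negative library under the weights.

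Iron genes moved as well under these weights, those of storage and heme breakdown toward 0. In the iron-positive library the log2 ratio of Hmox1 was then -0.99, of Fth1 -0.34, of Ftl1 -0.46, of Slc40a1 -0.46 and of Cd163 -0.80. In the iron-negative library Hmox1 had -0.56, Fth1 -0.24, Ftl1 -0.26, Slc40a1 -1.22 and Cd163 -0.05. Trf had -0.47 in the iron-positive and -0.46 in the iron-negative library and was then within 1.5-fold. Tfrc had 0.27 in the iron-positive library, against -0.07 without the weights, and 0.38 in the iron-negative library, and Alad had 0.84 in the iron-positive and 0.86 in the iron-negative library. Counted cluster by cluster, over the 9 clusters of the iron-positive library and the 7 of the iron-negative library with at least 30 cycling cells and phagocyte genes in the lead, Hmox1, Fth1 and Ftl1 were lower in cycling cells in all of them. Tfrc was higher in cycling cells in 8 of 9 iron-positive and 5 of 7 iron-negative clusters, and Slc40a1 lower in 6 of 9 iron-positive and 6 of 7 iron-negative clusters. These directions have no intervals and rest on few UMIs per cluster for both genes. In those iron-negative clusters Slc40a1 stood at no more than 5.52 CPM in cycling and 6.90 CPM in other cells, under the 10 CPM minimum. In the cluster led by Mmp8, Mmp12 and Cd36, Slc40a1 stood at 196 CPM in 68 cycling cells and 240 CPM in the others of the iron-positive library.

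Monocyte genes kept part of their gap inside clusters, Ly6c2 at -1.47 in the iron-positive and -1.04 in the iron-negative library, and Slfn5 and Tcp11l2 kept nearly all of it, at -1.71 and -1.53 in the iron-positive and -1.62 and -1.32 in the iron-negative library. Slfn5 stood at 36.7 CPM in cycling and 129 CPM in other phagocytes of the iron-positive library and at 38.5 CPM in cycling and 124 CPM in other phagocytes of the iron-negative library. Cx3cr1 lost most of its difference, at 0.27 in the iron-positive and 0.16 in the iron-negative library, and Ccnd1 nearly all of it, at 0.01 and -0.02. Clec10a, F13a1 and Saa3 were within 1.5-fold under the weights in the iron-positive library, at -0.44, -0.55 and -0.34.

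**Figure D4:**
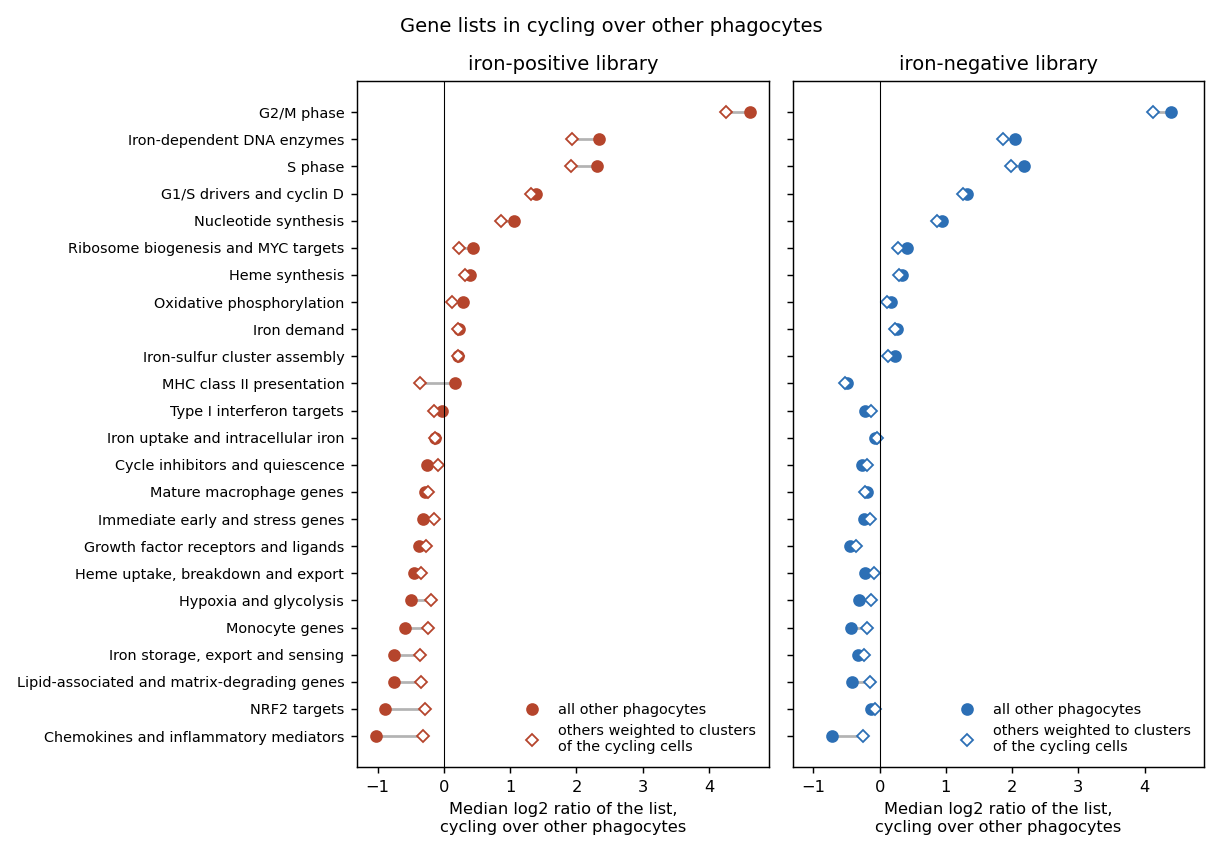
Median log2 ratio of cycling over other phagocytes (x axis) over the measured genes of each list (y axis), iron-positive library left and iron-negative library right. Filled circles use all other phagocytes and open diamonds other phagocytes weighted to the clusters of the cycling cells; the cycle lists stay far above 0, the iron demand list stays near 0.2, and lists such as NRF2 targets and chemokines move toward 0.

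Few genes passed 1.5-fold between the cycling cells of the iron-positive and the iron-negative library. Of 7946 measured genes 0.73% were at least 1.5-fold higher in iron-positive than in iron-negative cycling cells and 0.327% lower. Among other phagocytes 2.67% of 7595 were higher and 1.03% lower. The counts rest on different numbers of cells and on other mixtures of states, so their difference has no test. As numbers of genes they were 58 higher and 26 lower in cycling and 203 higher and 78 lower in other phagocytes. With the iron-negative cells weighted to the clusters of the iron-positive ones they were 41 higher and 28 lower in cycling and 53 higher and 12 lower in other phagocytes, so most of the gap between the groups was gone. The median over all measured genes was -0.07 in cycling and -0.10 in other phagocytes on the log2 scale. None of the genes of the S phase, G2/M, nucleotide synthesis, heme synthesis, iron-sulfur or iron demand lists passed 1.5-fold between the libraries in cycling cells. Rrm2, for example, was at 97.5 CPM in iron-positive and 103 CPM in iron-negative cycling cells.

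All 10 genes named as higher in iron-positive cycling cells also had positive ratios among other phagocytes. Mmp12, macrophage elastase, stood at 175 CPM in iron-positive and 29.7 CPM in iron-negative cycling cells, a log2 ratio of 2.56, against 3.73 in other phagocytes. The scavenger receptor Cd36 had ratios of 1.37 in cycling and 3.09 in other phagocytes, and Hmox1 of 1.16 in cycling and 2.07 in other phagocytes. Slc40a1 had ratios of 4.11 in cycling and 4.20 in other phagocytes, but of 3.58 in cycling and 1.88 in other phagocytes under those weights. The remaining genes named as higher were Saa3, the interferon-induced Ifitm1, the glutathione genes Gsr, Gclm and Slc7a11, osteopontin (Spp1) and Il7r, with ratios of 0.87 to 1.96. Those named as lower were Fcrls, Cbr2, Hist1h2ap, Rnase4, the scavenger receptor Stab1, Fads1, Igfbp4, Ccl8, Adgre5 and Tmem37, with ratios from -0.94 to -0.52. Fcrls stood at 117 CPM in iron-positive and 224 CPM in iron-negative cycling cells.

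The oxidative stress genes driven by NRF2 had a smaller library ratio in cycling than in other phagocytes, a difference that has no test here. Their median log2 ratio of iron-positive over iron-negative was 0.20 in cycling and 0.92 in other phagocytes over 14 genes, and 4 were at least 1.5-fold higher in iron-positive than in iron-negative cycling cells and 9 among the other phagocytes. Of the 14, 3 were at least 1.5-fold lower in cycling than in other phagocytes of both libraries. Prdx1, a peroxidase, stood at 1142 CPM in cycling and 2511 CPM in other phagocytes of the iron-positive library and at 810 CPM in cycling and 821 CPM in other phagocytes of the iron-negative library. With the iron-negative cells weighted to the clusters of the iron-positive ones, Hmox1 had a ratio of 0.44 in cycling and 0.27 in other phagocytes and Gclm of 0.57 in cycling and 0.53 in other phagocytes, so the ratio was no longer the smaller one in cycling cells for these genes. Prdx1 had 0.22 in cycling and 0.34 in other phagocytes under those weights.

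Of the 24 lists, MHC class II genes alone pointed one way in one library and the other way in the other for every measured member. Of 9 listed genes 7 reached 10 CPM. All 7 were higher in cycling than in other phagocytes of the iron-positive library, by 0.10 to 0.40 on the log2 scale, and all 7 lower in the iron-negative library, by -0.56 to -0.26. The levels in cycling cells were nearly the same in both libraries. H2-Aa, a chain of the class II dimer, stood at 2605 CPM in iron-positive and 2588 CPM in iron-negative cycling cells, while it stood at 2396 CPM in iron-positive and 3810 CPM in iron-negative other phagocytes. Cd74, the invariant chain, stood at 7005 CPM in iron-positive and 7051 CPM in iron-negative cycling cells, and at 6527 CPM in iron-positive and 9782 CPM in iron-negative other phagocytes. With other phagocytes weighted to the clusters of the cycling cells, the list's median was -0.35 in the iron-positive and -0.52 in the iron-negative library, so that the direction in the iron-positive library turned.

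**Figure D5:**
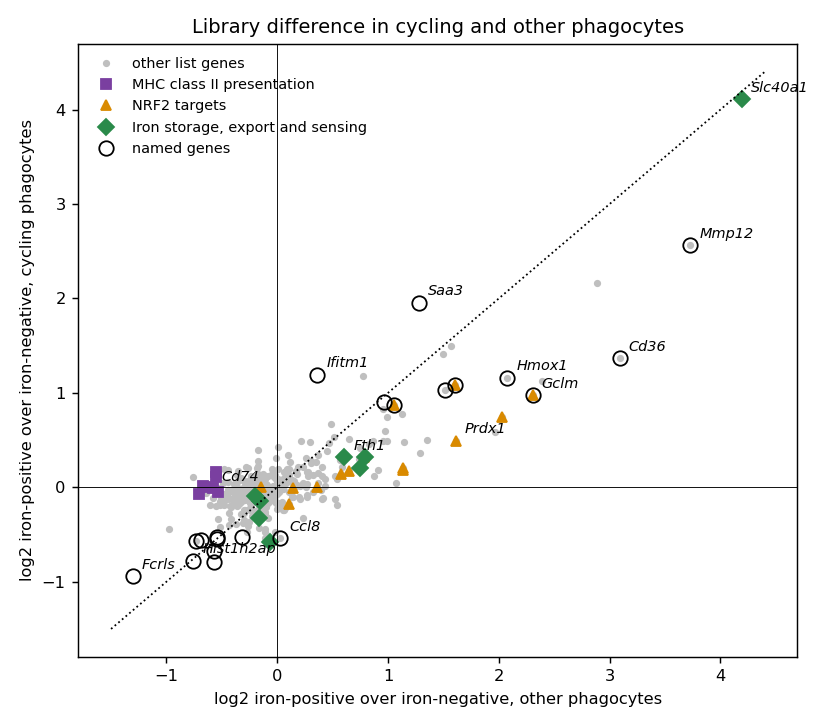
Log2 ratio of iron-positive over iron-negative library in other phagocytes (x axis) and in cycling phagocytes (y axis) for genes of the lists, with the MHC class II, NRF2 and iron storage lists coloured, genes named for this comparison circled, and equality as a dotted line. MHC class II genes lie near 0 on the y axis and at -0.54 to -0.71 on the x axis, and NRF2 targets lie mostly below the line.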

How the data were processed

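Single-cell RNA of 2 libraries, 1 per magnetic fraction, was read from the deposited matrices of raw UMI counts per gene and barcode (unit: counts), which the authors had made with Cell Ranger on mm10, version 3.1.0 per the submitters' processing notes and 5.0.0 per the file headers. Groups follow the labels. The members and gene lists were chosen with earlier results of these data known. For each group, the UMIs of its cells were added up and divided by their total (CPM), and log2 ratios used each count plus 0.5, with exact conditional Poisson intervals at 95%. A gene was measured at 10 CPM or more in either group and counted as higher or lower at 1.5-fold. No p-value was computed. Named genes were the 12 largest ratios each way common to both libraries, and the 10 each way between libraries, at 50 CPM and 100 UMIs or more, without mitochondrial, ribosomal protein, receptor segment, unnamed and selecting genes, plus the iron lists and, from any other list, at most 6 members. Clusters were made with scanpy 1.11.5 (2000 variable genes, 30 components, 15 neighbours, Leiden resolution 1). The scripts ran in Python 3.11.15. The calculation of gene ratios was tested on simulated UMI sums, and the other steps were not. The alternatives were other cell, marker, depth, CPM and scaling settings and, added after seeing the data, weighting to clusters and leaving out 3 clusters. No doublet caller was run. Some genes are not reported here.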

Additional observations from a re-analysis of the deposited data

Results flagged for a closer look

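The MHC class II genes differed in direction between the libraries. Their median log2 ratio of cycling over other phagocytes was 0.16 in the iron-positive library, with all 7 measured genes higher, and -0.50 in the iron-negative library, with all 7 lower. The difference between the libraries was not tested, since there is 1 library per fraction.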

How the results depend on the processing

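No paired analysis was possible because each fraction has 1 library, and no replicate could be left out. Depth limits these data: the cycling share depends on how many markers a cell's UMIs can show. It was 12.3% in the iron-positive and 15.5% in the iron-negative library with 3 of 6 markers, 8.56% and 9.29% with 5, 8.42% and 9.65% without the 5% of phagocytes with most UMIs, and 4.92% and 5.39% after thinning to 3000 UMIs. In the iron-positive library it was 10.95% with all 4 phagocyte markers and 10.86% with at least 5000 UMIs. With a minimum of 50 CPM, 416 and 351 genes were higher and 229 and 123 lower in cycling cells. After thinning 855 and 661 were lower, and with weighting to clusters 156 and 121. Between the cycling cells of the libraries, 429 genes were higher in iron-positive and 621 lower after thinning, against 58 and 26 without, and 21 and 4 at 50 CPM. The thinned comparison rests on 346 iron-positive and 446 iron-negative cycling cells of 3000 UMIs each. Genes near 10 CPM then have few UMIs, and the part of counting error in the larger counts was not tested. The lower count was 14 with 3 markers, 40 with the mean of each cell's CPM, 16 with median-ratio scaling and 41 without the 5% of cells with most UMIs. The iron demand median in the iron-negative library was 0.33 after thinning and 0.19 at 50 CPM. The S phase-led share was 37.6% and 40.1% with 3 markers and, in the iron-negative library, 29.5% with 5. Of the 11 states 2 lay above the share of all phagocytes in each library, but 1 in the iron-positive library when cycling cells were chosen after thinning; of the 15 clusters 8 and 7 did. Directions that turned with weighting to clusters, added after seeing the data, include the MHC class II median in the iron-positive library at -0.35, against 0.16 without, Tfrc there at 0.27, against -0.07, and Ccnd1 in the iron-negative library at -0.02, against 0.24. The causes were not tested.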
